A study of Mus musculus with 77 samples.

Results

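The acute-phase proteins of the liver are plasma proteins whose production changes when the body is inflamed, and 10 genes that encode them were followed here in the livers of mice that lack either iron regulatory protein. They are *Saa1*, *Saa2*, *Saa4*, *Orm1*, *Orm2*, *Apcs*, *Serpina3n*, *Lcn2*, *Itih3* and *Itih4*. They were picked by name as acute-phase genes, with earlier results of these data known, from the 25266 genes in the count files, and all 10 were among the 10696 genes that passed the filter on low counts. The question put to them was whether they differed between genotypes or times of day, and whether livers with more acute-phase transcript also had more hepcidin or other iron transcripts.

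In the acute-phase response, cytokines of the interleukin-6 and interleukin-1 families reach hepatocytes and act through STAT3, C/EBP and NF-kB factors to raise transcription of secreted defence proteins. Interleukin-6 also raises transcription of *Hamp*, which encodes hepcidin, the hormone that closes the iron exporter ferroportin and so lowers plasma iron. Serum amyloid A and orosomucoid are among the proteins with the widest range in mice, while inhibitors and matrix proteins such as the inter-alpha-trypsin inhibitor heavy chains are made at high levels in healthy liver too.

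Ribosome-protected fragments (RPFs), the stretches of mRNA that translating ribosomes shield from RNase I, and total RNA were sequenced from the same liver lysates, which gave 24 RPF and 24 RNA libraries from 24 individual mice. The mice were males of 12 to 24 weeks on a C57BL/6J background, kept in cycles of 12 h light and 12 h dark with free access to food. There were 8 groups of 3 livers. *Aco1*-/- mice (allele *Aco1*tm1.1Mwh), which lack iron regulatory protein 1, and their *Aco1*+/+ controls were killed at ZT5, 5 h after lights on, or at ZT12, the time of lights off. *Ireb2*-/- mice (allele *Ireb2*tm1.2Mwh), which lack iron regulatory protein 2, and their *Ireb2*+/+ controls were killed at the same 2 times. Both alleles were present in the whole animal, so effects within hepatocytes cannot be told apart from effects of other organs. Genotypes were compared within a line, and the 2 lines share no liver.

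Reads within coding sequence (CDS) numbered 852293 to 3993492 in RNA libraries (median 2103622) and 2448915 to 13439600 in RPF libraries (median 6784598). Levels are given as upper-quartile normalised CPM, the reads of a gene relative to all CDS reads of its library, which are not scaled by gene length and so were compared between livers and not between genes. Translational efficiency (TE) is the log2 ratio of RPF to RNA in a liver. *Aco1* RPF was 74.8 to 123.2 CPM in *Aco1*-/- livers against 347.1 to 591 in *Aco1*+/+, and *Ireb2* RPF 32.5 to 41.2 CPM in *Ireb2*-/- livers against 62.3 to 81.4 in *Ireb2*+/+, so each targeted gene was lower in the livers labelled as its knockout. Both knockout alleles still gave RNA, with *Aco1* at 114 to 215 CPM and *Ireb2* at 98.9 to 162 CPM. All 6 hepatocyte markers were detected, with a summed RNA level of 116024 to 172060 CPM. Summed markers of Kupffer cells and macrophages (12 of 12 detected) were at 502 to 856 CPM, those of neutrophils (3 of 9 in the files) at 0 to 3.98 CPM and those of lymphocytes (3 of 6 in the files) at 0 to 3.80 CPM. Exocrine pancreas markers (5 of 5) summed to 9261 CPM in *Ireb2*+/+ ZT5 replicate 3 and to 230.2 in *Ireb2*-/- ZT12 replicate 1 against a median of 12.8, so these 2 livers stand apart and counts of calls are also given without them. In bulk liver, fewer cells of a type and less RNA per cell cannot be told apart.

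The promoters of 9 of the 10 genes, from 250 bases before to 50 after the RefSeq start (build GRCm38.p6), were searched on both strands for the letters TTGCNNAA (reverse complement TTNNGCAA), a C/EBP-type motif. They were found in 5 of 9, and in 10.8% of the 32851 mouse promoters in the same table. These 30-base stretches are shown because *Saa1* and *Saa2*, the members with the largest SD of RNA within groups, hold the same letters at nearly the same place. Each is read 5′ to 3′ on the strand of the gene, with the match in capitals. Distances are from the start used in the promoter table, which for *Saa1* (chr7, position 46742980, minus strand) lies inside the gene span given with its values, so its stretch lies within that longer span.
Saa1, chr7:46743144-46743173, 182 bases upstream: ctgtgctcccaTTGCACAAtgagggagaat
Saa2, chr7:46751639-46751668, 183 bases upstream: ctgtgctcccaTTGCACAAtgagggaaaat
Saa4, chr7:46732637-46732666, 52 bases upstream: accaggaaggaTTGAGCAAgagggactctg
Orm2, chr4:63362318-63362347, 120 bases upstream: gagagaacattTTGCGCAAgacatttccca
Lcn2, chr2:32387937-32387966, 216 bases upstream: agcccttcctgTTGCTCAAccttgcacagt
The *Saa4* match lies on the opposite strand, and *Saa4* holds another match 245 bases upstream. The letters TTCNNNGAA, a STAT-type motif present in 8.3% of promoters, were found in *Apcs* and *Itih4*, and an NF-kB-type motif of 10 letters, present in 1.63%, in *Serpina3n*. A match is a description of the letters and not a site, and the motifs were chosen after values of these genes were known.

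*Saa1* (chr7:46740497-46743181) and *Saa2* (chr7:46751833-46754313) encode the inducible serum amyloid A apolipoproteins and lie head to head with 8853 bases between their starts. Their promoter windows are identical at 287 of 301 aligned positions (95.3%), against 50.9% between *Saa1* and *Saa4*. Because the coding sequences of *Saa1* and *Saa2* are near-identical too, and the way reads matching both were counted is not given in the sources used here, the split of reads between them is uncertain. The same holds for *Orm1* (chr4:63344556-63348163) and *Orm2* (chr4:63362449-63365877), which encode the orosomucoids, carriers of small molecules in plasma.

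**Figure D1:**
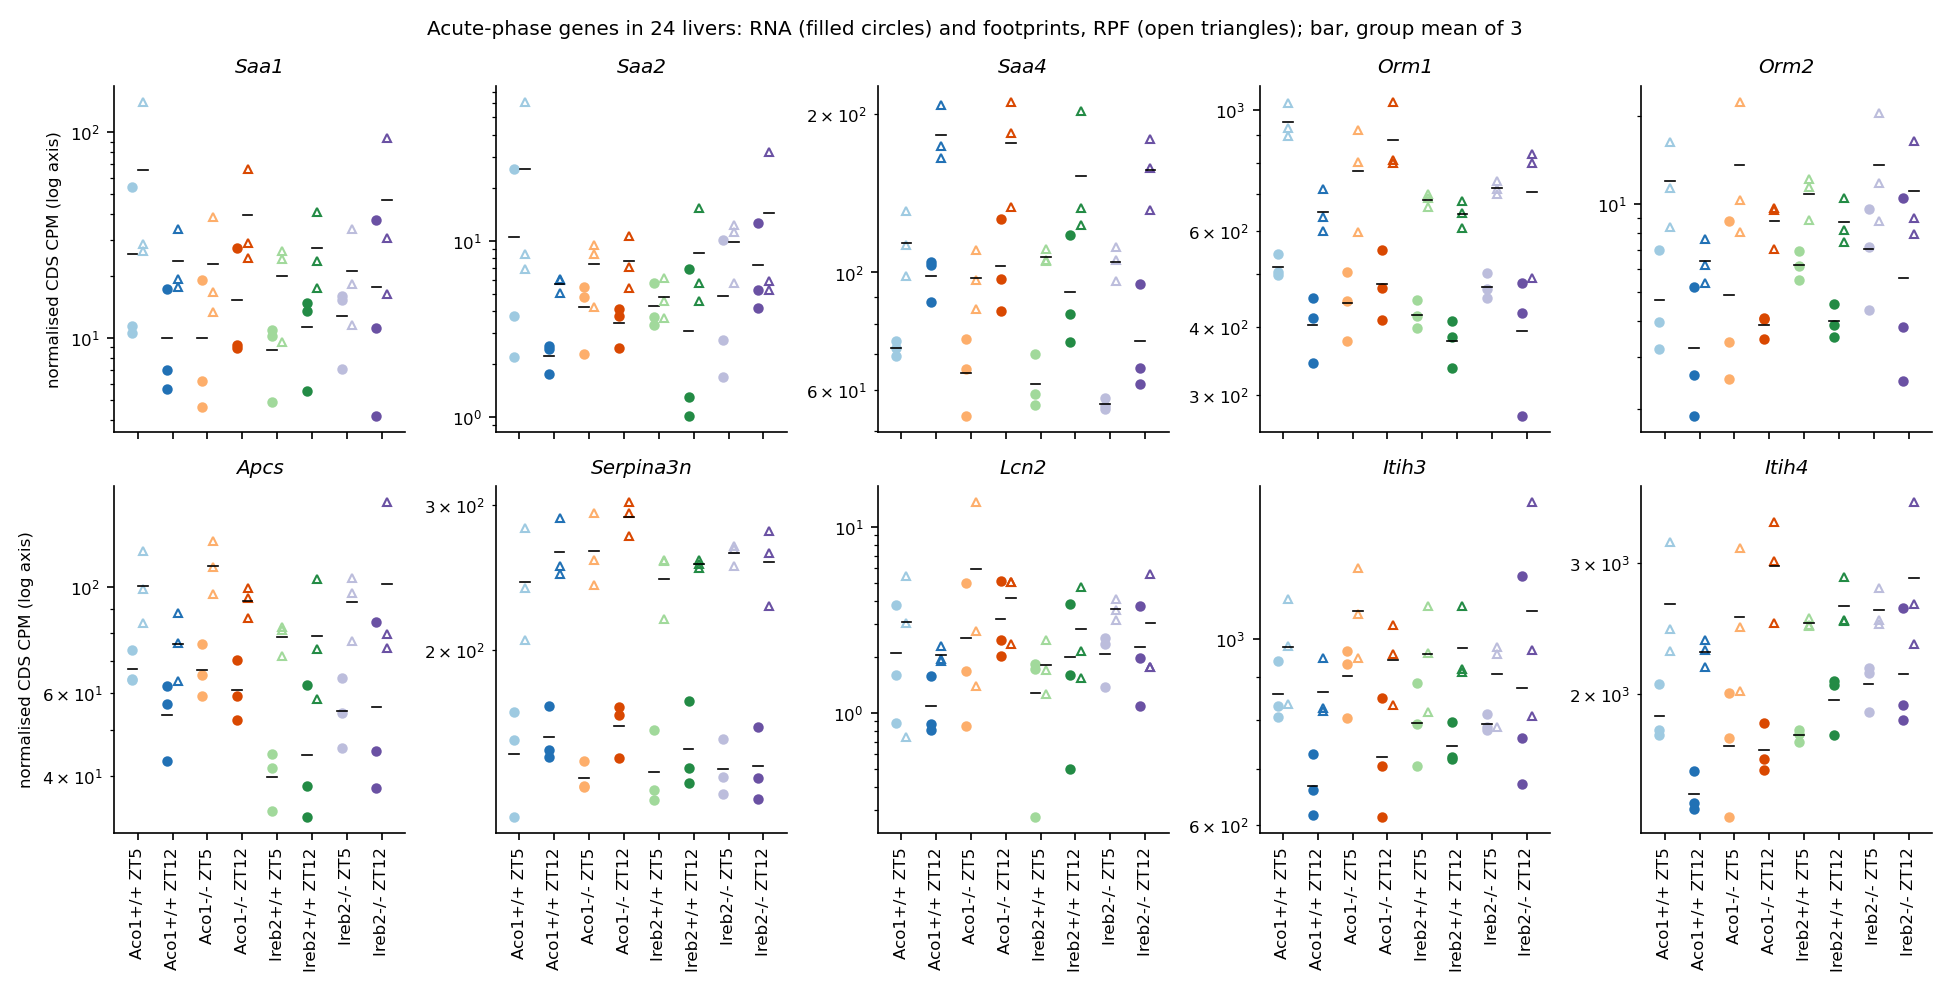
Normalised CDS CPM (log axis) of each of the 10 genes in every liver, by group along the horizontal axis. Filled circles are RNA, open triangles RPF and bars the mean of the 3 livers of a group. *Saa1*, *Saa2*, *Orm2* and *Lcn2* spread widely within groups, with *Aco1*+/+ ZT5 replicate 3 highest for *Saa1* and *Saa2*, while *Serpina3n* stays between 125.2 and 173 CPM in RNA.

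The 10 genes fell into those that differed widely between livers of the same group and those that did not. Across the 24 livers, *Saa1* RNA ranged 13.1-fold, *Saa2* 25.2-fold, *Lcn2* 18.4-fold and *Orm2* 5.56-fold, whereas the other 6 ranged between 1.38-fold (*Serpina3n*) and 2.57-fold (*Apcs*). The SD of log2 RNA within groups was 1.02 for *Saa1* and 1.02 for *Saa2*, ranks 332 and 333 of 10696 genes, against a median of 0.33 over all genes. Counting error alone would give an SD of 0.30 for *Saa1* and 0.54 for *Saa2*, and 0.46 of the observed 0.62 for *Orm2*. For *Lcn2* it would give 0.80 of the observed 0.95, with 1 to 24 reads per RNA library, so most of the spread of *Lcn2* RNA is of the size of counting error.

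*Saa1* showed how single livers stood out. In *Aco1*+/+ livers at ZT5 its RNA was 10.5, 11.5 and 54.5 CPM, and in *Ireb2*-/- livers at ZT12 it was 4.16, 37.6 and 11.1 CPM. In *Aco1*-/- livers it was 4.62, 19.2 and 6.21 CPM at ZT5 and 27.5, 9.23 and 8.98 CPM at ZT12. The *Aco1*+/+ livers of ZT12 held 17.3, 6.95 and 5.66 CPM. In each of these 5 groups a single liver stood above the other 2, in 3 genotypes and at both timepoints. In the other groups no single liver was high, with 10.2, 4.91 and 10.96 in *Ireb2*+/+ ZT5, 5.52, 14.9 and 13.5 in *Ireb2*+/+ ZT12 and 7.06, 15.97 and 15.4 in *Ireb2*-/- ZT5. All 8 groups overlapped in *Saa1* RNA with at least 1 other group.

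RPF repeated the pattern in the second library of the same livers. *Saa1* RPF was 28.7, 26.4 and 141 CPM in *Aco1*+/+ ZT5 and 16.4, 93.7 and 30.5 CPM in *Ireb2*-/- ZT12, so the same replicates were highest. *Saa2* RPF was 6.93, 8.35 and 61.4 CPM in *Aco1*+/+ ZT5 and 5.27, 31.9 and 5.92 CPM in *Ireb2*-/- ZT12. In the third highest liver for *Saa1* RNA, *Aco1*-/- ZT12 replicate 1, *Saa1* RPF was 66.1 CPM against 24.4 and 28.9 in its group, while *Saa2* RPF was 10.6 against 5.37 and 7.05. *Saa2* RNA rested on 2 to 40 reads per library and reached 25.4 CPM in *Aco1*+/+ ZT5 replicate 3, where *Saa1* was highest as well.

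*Lcn2* (chr2:32384637-32387739) encodes lipocalin 2, which binds bacterial siderophores and so withholds iron. Its RNA was 0.276 to 5.09 CPM with a median of 1.71, and its RPF reached 13.6 CPM in *Aco1*-/- ZT5 replicate 2 against 2.76 and 1.39 CPM in the other livers of that group. In that liver *Lcn2* RNA was 5.01 CPM, again the highest of the group. *Orm2* RNA ranged from 1.89 to 10.5 CPM with 4 to 42 reads per library, and its RPF was highest, at 22.4 CPM, in the same *Aco1*-/- ZT5 replicate 2.

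The other genes were steadier. *Apcs* (chr1:172893961-172895054), which encodes serum amyloid P, a pentraxin, ranged from 32.9 to 84.4 CPM in RNA with a median of 57.8. *Serpina3n* (chr12:104406646-104414334), a secreted protease inhibitor, had a within-group SD of 0.14 in log2 RNA, rank 10218 of 10696 genes. *Itih3* (chr14:30908572-30923787) and *Itih4* (chr14:30886476-30901986), neighbouring genes for heavy chains of the inter-alpha-trypsin inhibitor family, had SDs of 0.20 and 0.17. *Orm1* at 0.21 and *Saa4* (chr7:46727992-46732603), the constitutive serum amyloid A, at 0.23 also lay below the median of all genes. Their reads were many, and counting error alone would give SDs of 0.05 for *Orm1*, 0.11 for *Saa4* and 0.02 for *Itih4*. The ranks and the median of all genes were not matched for read number. *Apcs*, *Itih3* and *Itih4* were each highest in *Ireb2*-/- ZT12 replicate 2, in RNA and in RPF, the liver with the second highest *Saa1*.

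**Figure D2:**
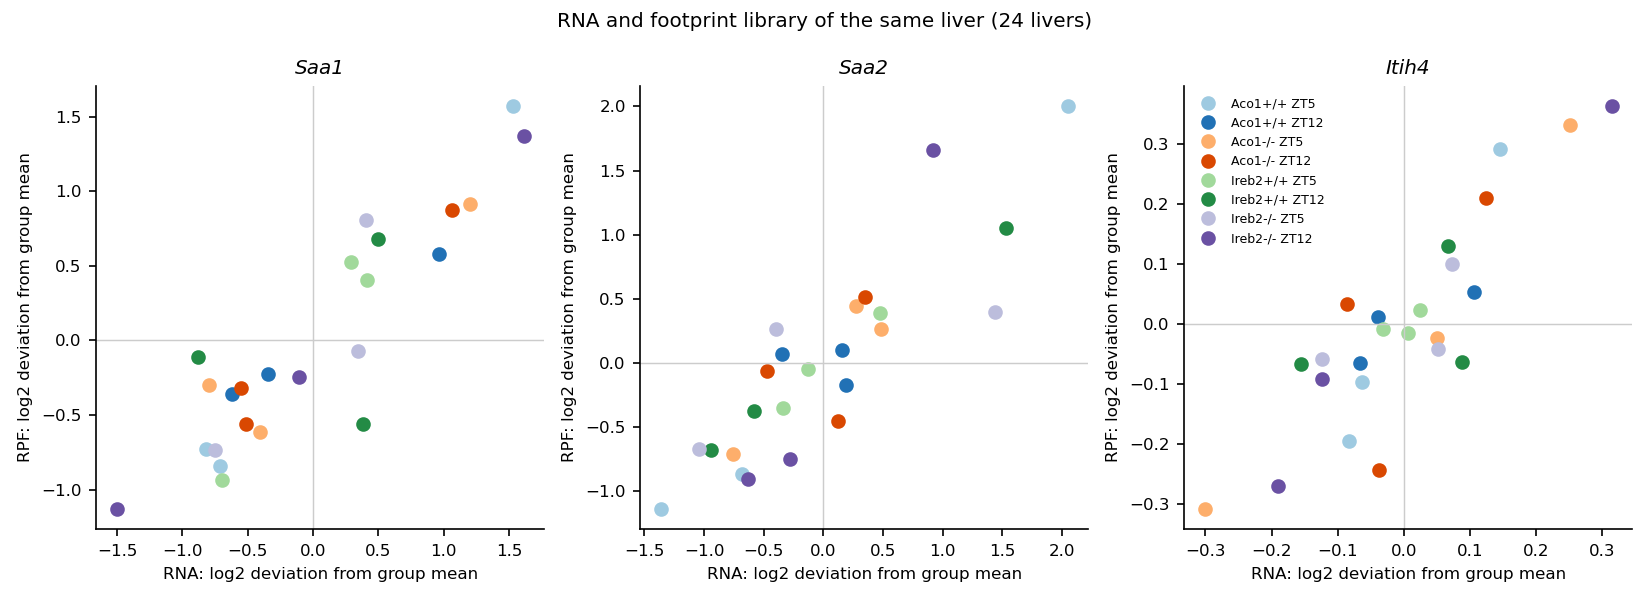
Log2 deviation of each liver from the mean of its group in RNA (horizontal) and in RPF (vertical) for *Saa1*, *Saa2* and *Itih4*, with 24 livers coloured by group. The points lie along a rising line in all 3 panels, with r of 0.91, 0.88 and 0.87.

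RNA and RPF are separate libraries of 1 lysate, so their agreement shows which differences between livers were measured more than once. After the group means were taken off, RNA and RPF of *Saa1* were correlated with Pearson r = 0.91 (permutation p = 1e-04, adjusted over the 10 correlations computed 0.00085) and Spearman rho = 0.84 (p = 0.00038, adjusted 0.0019) over 24 livers. Without the 2 livers farthest from the median r was 0.83, and within the *Aco1* and *Ireb2* lines it was 0.96 and 0.85. *Saa2* gave r = 0.88 (permutation p = 0.00017, adjusted 0.00085) and rho = 0.86 (p = 0.00022, adjusted 0.0019), with 0.73 without the 2 farthest livers. *Orm1*, *Orm2*, *Apcs*, *Itih3* and *Itih4* had r between 0.84 and 0.87, each past an adjusted permutation p of 0.05. For *Lcn2* (r = 0.39, adjusted permutation p = 0.20, rho = 0.24, adjusted p = 0.388) and *Serpina3n* (r = 0.37, adjusted permutation p = 0.221, rho = 0.26, adjusted p = 0.348) the libraries were not shown to agree over all livers. Without the 2 livers with pancreas markers, *Serpina3n* gave r = 0.61 (adjusted permutation p = 0.0249) and rho = 0.63 (adjusted p = 0.0137), and its r was 0.74 within the *Aco1* line and -0.096 within the *Ireb2* line. *Saa4* (r = 0.67, adjusted permutation p = 0.0241, rho = 0.60, adjusted p = 0.0302) fell to r = 0.44 without the 2 farthest livers, and had r of 0.42 within the *Aco1* line and 0.89 within the *Ireb2* line.

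All 10 genes had more RPF than RNA in normalised CPM, with a mean TE between 0.29 (*Itih3*) and 1.25 (*Saa1*) on the log2 scale against a median of 0.08 over all genes tested. TE varied less between livers of a group than either level for 8 of the 10 genes. The SDs were 0.10 for *Itih4*, 0.11 for *Orm1* and 0.12 for *Itih3*, against a median of 0.37 over all genes that was not matched for read number. The exceptions were *Serpina3n*, with an SD of 0.16 in TE and 0.14 in RNA, and *Lcn2*, with 1.04 and 0.95. For *Saa1* the SD of TE was 0.43, less than the 1.02 of its RNA.

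Time of day was compared over all livers, 12 at each timepoint, with the mean of the 4 time effects. In RNA 1 of the 10 genes passed an adjusted p of 0.05 (edgeR quasi-likelihood test, adjusted over all genes), against a background of 22.3% of the genes tested. In RPF 2 of 10 passed, against a background of 31.8%. In TE 0 of 10 passed, against 0.486% of all genes, with 2 at an unadjusted p under 0.05 (9.40% of all genes), of which *Itih3* had the smaller (adjusted p = 0.293, edgeR). The shares of members called in RNA and RPF thus were not above the share of all genes.

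*Saa4* was the gene called in both. Its RNA was 72.0, 69.3 and 74.1 CPM at ZT5 and 87.8, 104 and 103 CPM at ZT12 in *Aco1*+/+, and 53.4, 74.7 and 65.7 CPM at ZT5 and 126, 97.2 and 84.7 CPM at ZT12 in *Aco1*-/-. In *Ireb2*+/+ it was 58.8, 70.0 and 56.0 CPM at ZT5 and 83.3, 73.9 and 118 CPM at ZT12, and in *Ireb2*-/- 57.8, 55.0 and 55.9 CPM at ZT5 and 61.5, 65.9 and 95.0 CPM at ZT12. In each of the 4 genotypes every liver at ZT12 lay above every liver at ZT5. Over all livers the mean was 91.8 ± 19.6 CPM at ZT12 and 63.6 ± 8.17 CPM at ZT5 (SD, n = 12 each), a log2 difference of 0.51 ± 0.09 (SE, adjusted p = 1.73e-05, edgeR). In RPF the means were 166.6 ± 31.4 and 105.7 ± 11.3 CPM, a log2 difference of 0.66 ± 0.09 (adjusted p = 1.35e-06, edgeR). Both calls were kept when any of the 24 livers was left out.

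Within single genotypes *Saa4* was called in RNA in *Aco1*-/- (log2 0.63 ± 0.16, SE, adjusted p = 0.0143, edgeR, against a background of 5.15%), but not without *Aco1*-/- ZT12 replicate 1 or ZT5 replicate 1, where the adjusted p was 0.0946 and 0.116. It was not called in *Aco1*+/+ (0.46, adjusted p = 0.074, edgeR, background 7.05%), *Ireb2*+/+ (0.56, adjusted p = 0.0976, background 2.29%) or *Ireb2*-/- (0.39, adjusted p = 0.304, background 2.77%). In RPF it was called in *Aco1*+/+ (0.67, adjusted p = 0.0238, edgeR, background 6.64%), *Aco1*-/- (0.86, adjusted p = 0.00403, background 12.1%) and *Ireb2*-/- (0.58, adjusted p = 0.0368, background 5.73%), and it was not called in *Ireb2*+/+ (0.51, adjusted p = 0.0542, background 7.53%). In the *Ireb2* line the uncalled differences rested in part on ZT12 replicate 3. Without that liver of *Ireb2*+/+ the log2 difference was 0.25 in RPF (adjusted p = 0.301, edgeR) and 0.35 in RNA, and without that of *Ireb2*-/- it was 0.18 in RNA. The call in *Aco1*+/+ was lost without *Aco1*+/+ ZT12 replicate 1 or 2 or ZT5 replicate 2, and that in *Ireb2*-/- without *Ireb2*-/- ZT12 replicate 2 or 3 or any of its 3 ZT5 livers. As the 4 groups of a line share 1 estimate of spread, the *Ireb2*-/- call was also lost without any of the 3 *Ireb2*+/+ ZT5 livers, at adjusted p up to 0.0532 (edgeR). The time effect on *Saa4* was not shown to differ with genotype, with a difference of 0.16 ± 0.23 (SE) between *Aco1*-/- and *Aco1*+/+ and of -0.18 ± 0.25 between *Ireb2*-/- and *Ireb2*+/+ in log2 RNA (adjusted p = 0.981 in the *Ireb2* line, edgeR). With 1 liver left out the first lay between 0.019 and 0.29 and the second between -0.39 and 0.035.

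**Figure D3:**
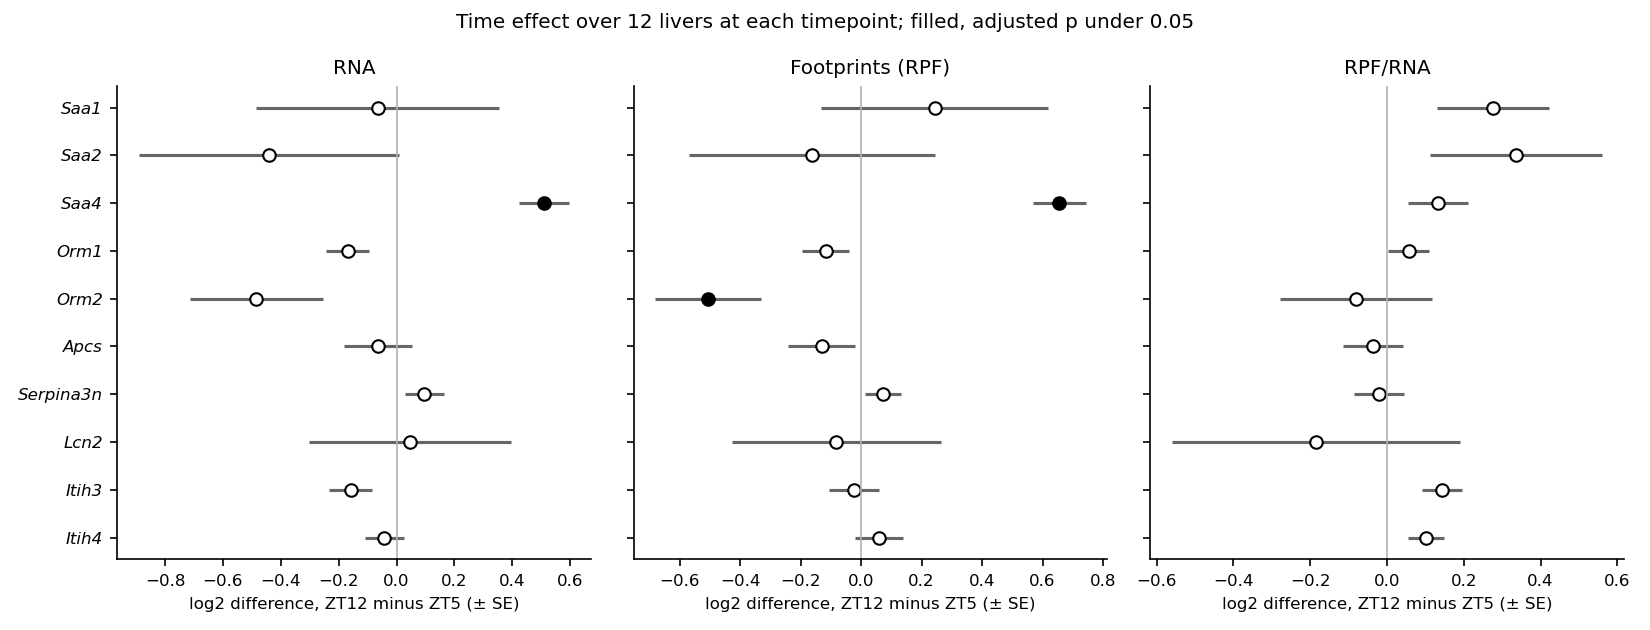
Log2 difference between ZT12 and ZT5 (horizontal, ± SE) for each of the 10 genes over 12 livers at each timepoint, in RNA, RPF and RPF/RNA. Filled points passed an adjusted p of 0.05, which holds for *Saa4* in RNA (0.51) and RPF (0.66) and for *Orm2* in RPF (-0.51).

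*Orm2* RPF was lower at ZT12 over all livers, at 8.75 ± 2.84 against 12.5 ± 4.75 CPM (SD, n = 12 each, log2 -0.51 ± 0.17, SE, adjusted p = 0.0302, edgeR). The timepoints overlapped, and the call was lost without the 2 livers with pancreas markers (log2 -0.43, adjusted p = 0.0852, edgeR). When *Orm1* and *Orm2* reads were summed, the difference was -0.12 (adjusted p = 0.244, edgeR). Median RPF was 716 CPM for *Orm1* and 9.25 for *Orm2*, so the sum follows *Orm1* and cannot test the *Orm2* call. Removal of a single liver ended the call for 7 of 24 livers, at adjusted p up to 0.0755. These were *Aco1*+/+ ZT5 replicate 3 and ZT12 replicate 3, *Aco1*-/- ZT5 replicate 2 and ZT12 replicate 3, and *Ireb2*-/- ZT5 replicate 2 and ZT12 replicates 1 and 2. *Orm1* RPF was lower at ZT12 in *Aco1*+/+ livers, where ZT5 gave 927, 893 and 1028 CPM and ZT12 637, 601 and 715 CPM (log2 -0.54 ± 0.16, SE, adjusted p = 0.0483, edgeR). These groups did not overlap, but the call was lost when any of the 6 livers was left out, with adjusted p up to 0.189, and for 3 of the 6 *Aco1*-/- livers of the same fit.

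In *Aco1*+/+ RNA, 5 of the 10 genes had timepoints that did not overlap, against a background of 26.1% of all genes. *Saa4* was higher at ZT12, while *Orm1*, *Apcs*, *Itih3* and *Itih4* were lower. *Itih3* RNA was 831, 942 and 806 CPM at ZT5 and 617, 659 and 729 CPM at ZT12 there. *Itih4* RNA was 1784, 1759 and 2062 CPM at ZT5 and 1425, 1398 and 1575 CPM at ZT12. In the other genotypes the number of genes without overlap in RNA was 2 in *Aco1*-/- (background 20.8%), 2 in *Ireb2*+/+ (background 19%) and 1 in *Ireb2*-/- (background 21.5%). In RPF it was 4 in *Aco1*+/+ (background 27.6%), 1 in *Aco1*-/- (background 27.4%), 1 in *Ireb2*+/+ (background 26.9%) and 1 in *Ireb2*-/- (background 23.6%), with *Saa4* among them each time. In TE 0 of 10 were called within any genotype, against 0.0187%, 0.15%, 0.533% and 0.00935% of all genes in *Aco1*+/+, *Aco1*-/-, *Ireb2*+/+ and *Ireb2*-/- (edgeR, also 0 by limma), with 0, 1, 1 and 2 at an unadjusted p under 0.05 against 7.49%, 8.05%, 8.22% and 4.52% of all genes.

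No member of the group was called by genotype. At an adjusted p of 0.05 (edgeR) 0 of 10 were called in RNA, RPF or TE for *Aco1*-/- against *Aco1*+/+ or *Ireb2*-/- against *Ireb2*+/+ at ZT5 or ZT12, and 0 were called by DESeq2 in RNA and RPF or by limma in TE. At an unadjusted p under 0.05 there were 0 genes in any of the 4 RNA comparisons, 2 and 1 in RPF for *Aco1* at ZT12 and *Ireb2* at ZT5, and 2 and 1 in TE for *Ireb2* at ZT5 and ZT12. The share of all genes at that cut was 12.7% and 7.64% in these RPF comparisons, and 7.01% and 3.56% in these TE comparisons. For RNA it was 3.73% (*Aco1*, ZT5), 7.66% (*Aco1*, ZT12), 5.64% (*Ireb2*, ZT5) and 4.21% (*Ireb2*, ZT12). In the RPF comparisons with 0 members it was 2.79% (*Aco1*, ZT5) and 7.62% (*Ireb2*, ZT12). For TE these were 2.54% (*Aco1*, ZT5) and 6.71% (*Aco1*, ZT12). With shares of this size, 0 of 10 does not set the members apart from other genes. The background of all genes called in the *Aco1* line was 0% in RNA, 0.00935% in RPF and 0.00935% in TE at ZT5, and 0.00935%, 0.299% and 0.0935% at ZT12. In the *Ireb2* line it was 0.00935%, 0.0654% and 0.00935% at ZT5, and 0.0187%, 0.028% and 0% at ZT12, so calls by genotype were rare for any gene. The p-values rest on the spread between livers within groups, with 1 estimate shared by the 4 groups of a line.

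**Figure D4:**
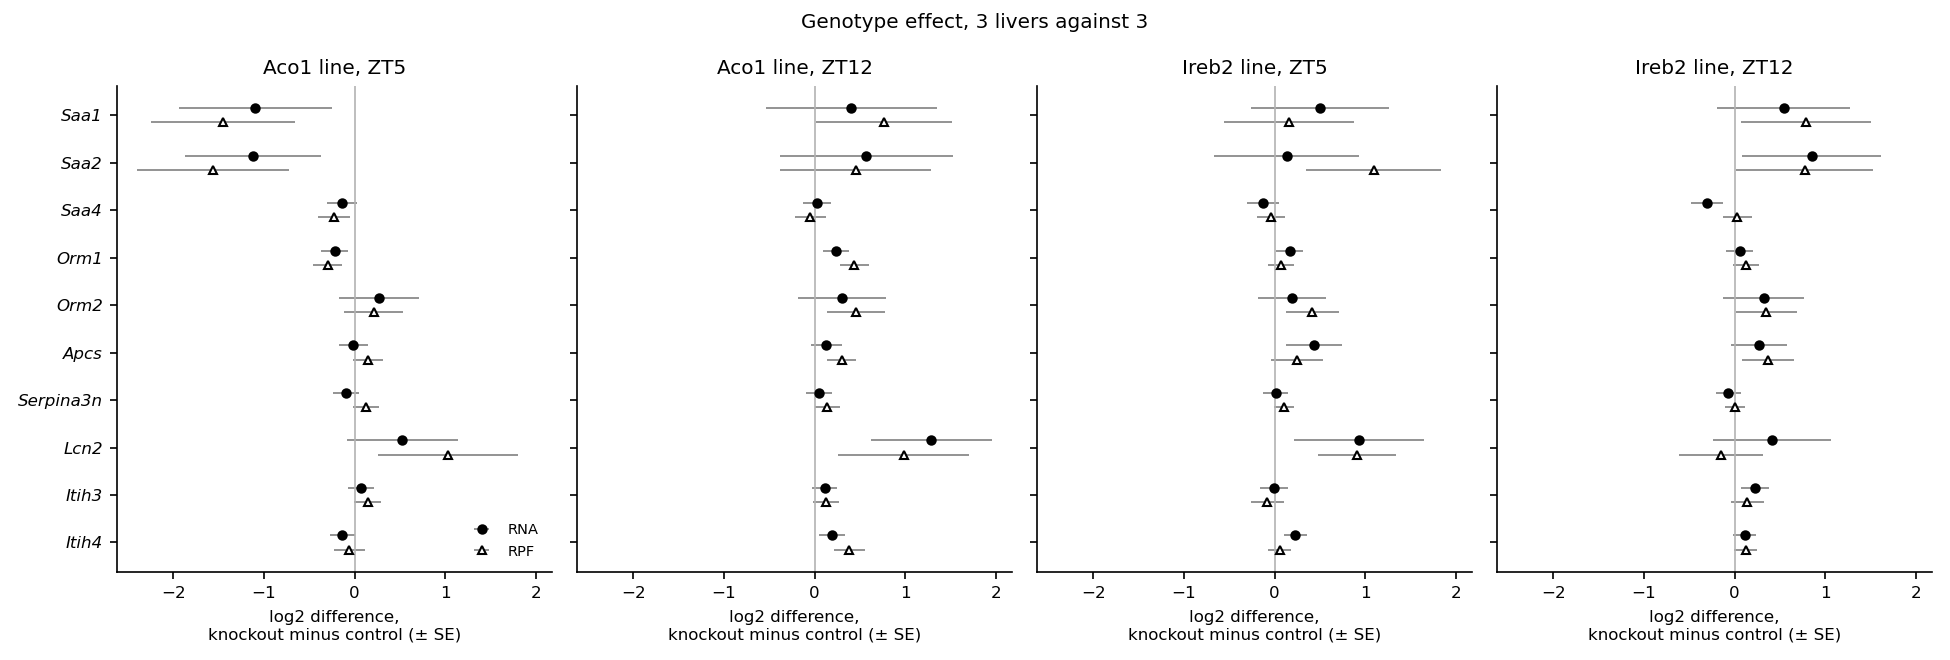
Log2 difference between knockout and control livers (horizontal, ± SE) of the 10 genes in each line and timepoint, for RNA (filled circles) and RPF (open triangles), 3 livers against 3. *Saa1*, *Saa2* and *Lcn2* have wide errors, and no gene passed an adjusted p of 0.05.

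At ZT5 in the *Aco1* line, *Orm1* RNA had the smallest p (505, 446 and 378 CPM in *Aco1*-/- and 544, 505 and 498 in *Aco1*+/+, log2 -0.22 ± 0.15, SE, adjusted p = 1, edgeR). Groups did not overlap for 0 of 10 genes in RNA (background 9.4%) and in RPF (background 7.67%). *Saa1* RNA differed by -1.10 ± 0.85 and RPF by -1.45 ± 0.80 (SE, adjusted p = 1 for both, edgeR), and this rested on the *Aco1*+/+ liver at 54.5 CPM in RNA, replicate 3. Without it the difference was -0.035 in RNA and -0.30 in RPF, and without *Aco1*-/- ZT5 replicate 2 it was -2.06 and -2.02. The fitted difference at ZT5 was positive for 3 of 10 genes in RNA and 5 of 10 in RPF, with a median of -0.12 and 0.035. At ZT12 the sign of the fitted difference was positive for 10 of 10 genes in RNA and 9 of 10 in RPF, with a median of 0.22 and 0.41 against about 0.00 and 0.02 over all genes. Groups did not overlap for 2 of 10 in RNA (*Itih4* and *Lcn2*, background 11.5%) and 3 of 10 in RPF (*Itih4*, *Lcn2* and *Orm1*, background 20.4%). *Orm1* RPF was 1035, 811 and 798 CPM in *Aco1*-/- and 637, 601 and 715 in *Aco1*+/+ (log2 0.44 ± 0.16, SE, adjusted p = 0.279, edgeR). In the same comparison *Lcn2* RNA was 5.09, 2.02 and 2.45 CPM in *Aco1*-/- and 0.805, 0.869 and 1.57 in *Aco1*+/+ (1.29 ± 0.67, adjusted p = 0.678, edgeR). Neither passed the threshold. *Orm1* also had the smallest p for a genotype effect that differed between ZT12 and ZT5, in RNA (0.46 ± 0.21, adjusted p = 0.836, edgeR) and in RPF (0.73 ± 0.23, adjusted p = 0.844). Across the interactions 0 of 10 were called in either line, with backgrounds of 0% in RNA and RPF in both lines and 0.028% and 0% in TE.

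In the *Ireb2* line at ZT5 the fitted difference was positive for 8 of 10 genes in RNA and in RPF. Groups did not overlap for 3 of 10 in RNA (*Itih4*, *Apcs* and *Orm1*, background 11.5%) and 1 of 10 in RPF (*Lcn2*, background 16.3%). *Itih4* RNA was 2135, 2164 and 1889 CPM in *Ireb2*-/- and 1766, 1789 and 1721 in *Ireb2*+/+ (log2 0.23 ± 0.13, SE, adjusted p = 0.837, edgeR). *Lcn2* RPF was 3.56, 3.17 and 4.07 CPM in *Ireb2*-/- and 1.26, 2.48 and 1.69 in *Ireb2*+/+ (0.91 ± 0.43, adjusted p = 0.641, edgeR). At ZT12 it was positive for 8 of 10 in RNA and 9 of 10 in RPF, and 0 of 10 genes were without overlap in RNA (background 10%) and in RPF (background 10.9%). *Apcs* RPF, with the smallest p there, was 74.4, 151 and 79.6 CPM in *Ireb2*-/- and 74.2, 104 and 58.3 in *Ireb2*+/+ (0.37 ± 0.29, adjusted p = 0.858, edgeR), and the difference was -0.026 without *Ireb2*-/- ZT12 replicate 2. In TE *Saa4* had the smallest p, with 1.09, 1.26 and 0.91 in *Ireb2*-/- and 0.67, 0.73 and 0.77 in *Ireb2*+/+ (0.36 ± 0.13, adjusted p = 1, edgeR). Groups without overlap in TE numbered 1 of 10 at ZT5 in the *Aco1* line (*Saa2*, background 8.84%), 1 at ZT12 (*Serpina3n*, background 11.2%), 2 in the *Ireb2* line at ZT5 (*Itih4* and *Saa2*, background 12%) and 1 at ZT12 (*Saa4*, background 9.82%).

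Between the control livers of the 2 lines, *Ireb2*+/+ against *Aco1*+/+ over both timepoints, line and batch cannot be told apart. Of the 10 genes, 0 were called in RNA (background 0.243%), 0 in RPF (background 0.374%) and 1 in TE (background 3.33%), with 1 each in RNA and RPF at an unadjusted p under 0.05 (11.7% and 17.7% of all genes) and 0 in RNA and RPF by DESeq2. *Apcs* TE was 0.87, 1.27, 0.77, 0.95, 0.74 and 0.81 in the *Ireb2*+/+ livers and 0.42, 0.40, 0.89, 0.55, 0.43 and 0.51 in the *Aco1*+/+ livers, which overlap in a single liver, *Aco1*+/+ ZT5 replicate 3 (0.38 ± 0.11, SE, adjusted p = 0.049, edgeR). Removal of a single control liver ended the call for 11 of 12 livers, *Aco1*+/+ ZT5 replicate 3 being the exception. It was also lost for 8 of the 12 knockout livers, which share the estimate of spread.

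Whether the genes rose in the same livers was read from the mean over the 10 genes of each liver's log2 deviation from its group. The highest liver was *Aco1*+/+ ZT5 replicate 3, at 0.53 in RNA and 0.64 in RPF, with 7 and 9 of the 10 genes above the mean of its group. In RNA *Aco1*-/- ZT5 replicate 2 followed, at 0.41 and at 0.44 in RPF, with 9 and 8 genes above. In RPF *Ireb2*-/- ZT12 replicate 2 followed, at 0.57 and at 0.32 in RNA, with 9 and 7 genes above. The lowest in RNA was *Ireb2*+/+ ZT12 replicate 1 at -0.39, with 0 of 10 genes above the mean of its group. Without *Saa1* and *Saa2* the highest liver in RNA stood at 0.22 and *Aco1*-/- ZT5 replicate 2 at 0.33. Most of this came from the low-count genes *Lcn2* and *Orm2*, at 1.05 and 0.64 in the first liver and 1.27 and 1.01 in the second. The remaining genes lay between -0.089 and 0.15 in the first and between -0.025 and 0.22 in the second. *Socs3*, an inhibitor of cytokine signalling that STAT3 induces, was 1.32, 0.267 and 4.44 CPM in RNA of *Aco1*+/+ ZT5 and 0.831, 7.08 and 0.655 CPM in *Ireb2*-/- ZT12, so within these 2 groups it was highest in the livers with the highest *Saa1*, on few reads. Over all 24 livers its r with the mean acute-phase level was 0.20 in RNA and 0.17 in RPF. In these 2 livers the summed Kupffer cell and macrophage markers were at 771 and 839 CPM (range of all livers 502 to 856) and neutrophil markers at 0 and 3.72 CPM (range 0 to 3.98), and the part of these cells in the result was not tested.

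Of the 45 pairs of genes, 0 passed an adjusted permutation p of 0.05 in RNA and 2 did so in RPF, where counts are higher. *Saa1* and *Saa2* had r = 0.66 (permutation p = 0.00223, adjusted 0.10) and rho = 0.69 (p = 0.00372, adjusted 0.0927) in RNA, and r = 0.85 (permutation p = 0.00036, adjusted 0.0081) and rho = 0.83 (p = 0.0002, adjusted 0.0045) in RPF. Reads shared between the copies could add to this, and that was not tested. *Itih3* and *Itih4* had r = 0.70 (permutation p = 0.00855, adjusted 0.192) and rho = 0.57 (p = 0.0213, adjusted 0.216) in RNA, and r = 0.82 (permutation p = 0.00027, adjusted 0.0081) and rho = 0.81 (p = 0.00011, adjusted 0.0045) in RPF. *Saa1* with *Orm2* (r = 0.64, permutation p = 0.0196, adjusted 0.278, rho = 0.65, p = 0.00617, adjusted 0.0927) and *Orm1* with *Apcs* (r = 0.62, permutation p = 0.0493, adjusted 0.425, rho = 0.67, p = 0.00618, adjusted 0.0927) came next in RNA. Without the 2 livers farthest from the median of the first gene, r in RNA was 0.45 for *Saa1* with *Saa2* and 0.49 for *Itih3* with *Itih4*, and 0.80 for *Saa1* with *Orm2* and 0.73 for *Orm1* with *Apcs* (adjusted permutation p = 0.0263 for both of the last). Within the *Aco1* and *Ireb2* lines these 4 pairs had r of 0.68 and 0.65, 0.53 and 0.84, 0.88 and 0.36, and 0.97 and 0.50.

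Among the genes outside the 10 whose RNA followed the mean acute-phase level most closely, the first were *Fgl1* and *Hp*, both known to be induced in inflamed liver. Over 24 livers and 8091 candidate genes, the highest r in RNA was 0.73 for *Fgl1*, a secreted fibrinogen-like protein, then 0.73 for *Hp*, which encodes haptoglobin, the carrier of free haemoglobin. In RPF their r with the RPF level was 0.86 and 0.67. RPF did not enter the ranking, but it comes from the same lysates and so is not independent of it. The others were *Zfp397* (0.71 in RNA and -0.59 in RPF), *Lgals3bp* (0.70 and 0.76), the interferon-induced GTPase *Igtp* (0.69 and 0.64), *Pim3* (0.67 and 0.65), *Qsox1* (0.67 and 0.63), *Tars2* (0.66 and 0.27), the MHC class II gene *H2-Eb1* (0.65 and 0.36) and *Apol9b* (0.65 and 0.73). The lowest were *Cln3* (-0.72 in RNA and 0.55 in RPF), *Ttc23* (-0.70 and -0.50), *Jmjd4* (-0.69 and close to 0), *Dis3* (-0.68 and 0.20) and *Hnrnpdl* (-0.68 and -0.44). *Zfp397*, *Cln3* and *Dis3* had opposite signs in RNA and RPF.

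*Hamp*, the hepcidin gene (chr7:30942368-30944029), was not above its group mean in RNA in the 2 livers with the most *Saa1*. In *Aco1*+/+ ZT5 its RNA was 568, 475 and 485 CPM, the last being the liver with *Saa1* at 54.5 CPM. In *Ireb2*-/- ZT12 it was 826, 713 and 794 CPM, the second being the liver with *Saa1* at 37.6 CPM. Of the next livers in *Saa1* RNA, *Aco1*-/- ZT12 replicate 1 had *Hamp* RNA below its group mean (log2 -0.58). *Aco1*-/- ZT5 replicate 2 had it above (0.25, and 0.40 in RPF). After group means were taken off, r between *Saa1* and *Hamp* RNA was -0.24 (permutation p = 0.299, adjusted over the 10 correlations computed 0.499) and rho -0.26 (p = 0.257, adjusted 0.52) over 24 livers. It was -0.24 without the 2 livers farthest from the median, -0.25 within the *Aco1* line and -0.24 within the *Ireb2* line. In RPF r was -0.13 (permutation p = 0.576, adjusted 0.822) and rho -0.22 (p = 0.334, adjusted 0.561).

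**Figure D5:**
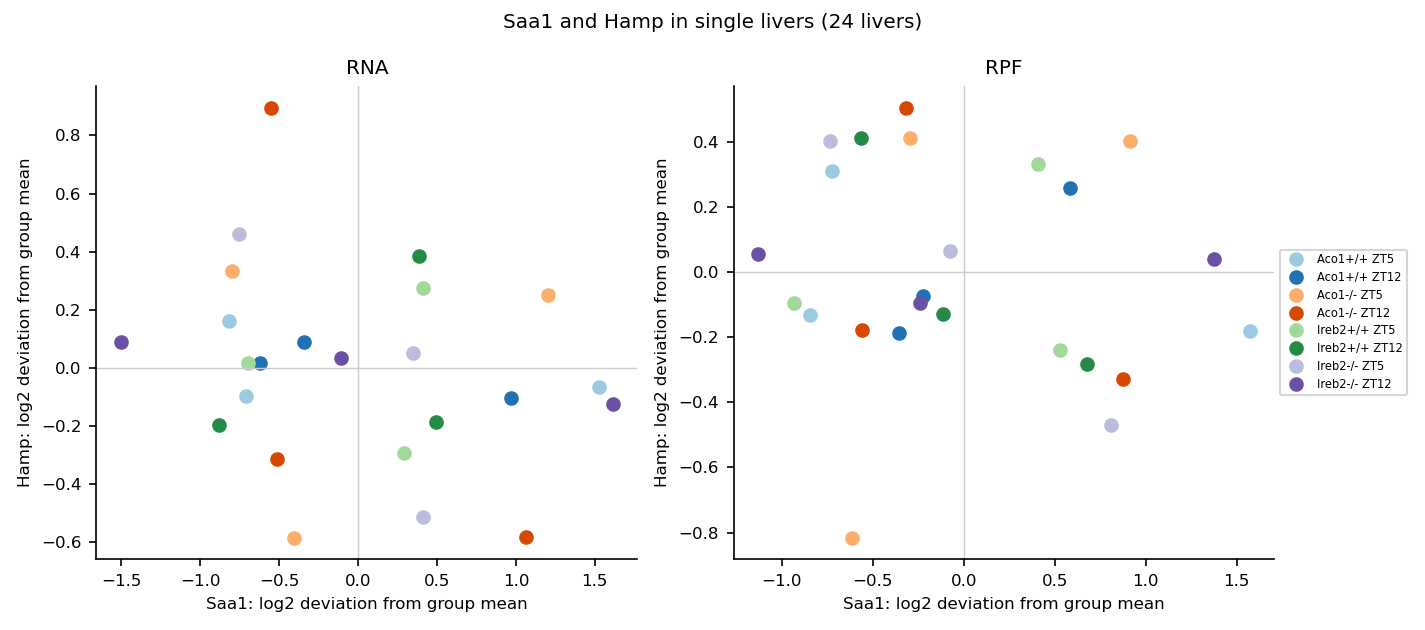
Log2 deviation of *Saa1* (horizontal) and of *Hamp* (vertical) from the group mean in 24 livers, in RNA (left) and RPF (right), coloured by group. No rising line is seen, with r of -0.24 and -0.13.

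In RNA 0 of the 10 genes passed an adjusted p of 0.05 for a correlation with *Hamp*. *Itih3* had the smallest p, with r = -0.47 (permutation p = 0.0131, adjusted 0.131) and rho = -0.54 (p = 0.0164, adjusted 0.164). In RPF *Itih3* passed, with r = -0.54 (permutation p = 0.00258, adjusted 0.0258) and rho = -0.65 (p = 0.00112, adjusted 0.0112), while *Itih4* passed by rank only (r = -0.57, permutation p = 0.0207, adjusted 0.104, rho = -0.60, p = 0.00692, adjusted 0.0346). The sign was negative in both, so livers above their group in *Itih3* RPF tended to be below it in *Hamp* RPF. With no group mean taken off, *Itih3* and *Hamp* RNA gave r = -0.037 (permutation p = 0.863, adjusted 0.983) and rho = -0.12 (p = 0.589, adjusted 0.91), so in RNA the relation was not seen across livers as such. For *Itih3* RNA, r was -0.63 without the 2 farthest livers, -0.72 in the *Aco1* line and -0.29 in the *Ireb2* line. *Lcn2* had a positive r with *Hamp*, 0.26 in RNA (permutation p = 0.287, adjusted 0.499, rho = 0.33, p = 0.204, adjusted 0.52) and 0.49 in RPF (permutation p = 0.103, adjusted 0.345, rho = 0.48, p = 0.0558, adjusted 0.186). The group with the highest *Hamp*, *Aco1*-/- at ZT5 with 1523, 1437 and 806 CPM against 568, 475 and 485 in *Aco1*+/+ (log2 1.30 ± 0.39, SE, adjusted p = 1, edgeR), had *Saa1* RNA at 4.62, 19.2 and 6.21 CPM, which was not called against its controls.

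*Saa1* RNA was also set against 23 iron genes, and 0 passed an adjusted permutation p of 0.05. The smallest p was for *Tmprss6*, the protease that lowers hepcidin production (r = -0.46, permutation p = 0.0517, adjusted over the 23 correlations computed 0.948, rho = -0.51, p = 0.0255, adjusted 0.587), with r of -0.32 without the 2 farthest livers, -0.28 in the *Aco1* line and -0.78 in the *Ireb2* line. *Hmox1*, which breaks down haem, had r = 0.44 (permutation p = 0.147, adjusted 0.948) and rho = 0.48 (p = 0.0726, adjusted 0.835). Its r was 0.022 without the 2 farthest livers, 0.28 in the *Aco1* line and 0.92 in the *Ireb2* line (adjusted permutation p = 0.105). The r over all livers was thus not kept without those 2 livers, and within the *Ireb2* line this was not tested. *Tfrc*, the transferrin receptor (r = 0.33, permutation p = 0.139, adjusted 0.948, rho = 0.19, p = 0.443, adjusted 0.981), and *Fth1*, ferritin heavy chain (r = -0.20, permutation p = 0.372, adjusted 0.948, rho = -0.17, p = 0.439, adjusted 0.981), did not pass either. Without the 2 farthest livers, r was 0.51 for *Tfrc* (permutation p = 0.0549, adjusted 0.632). For *Slc40a1*, the ferroportin gene, it moved from -0.10 to -0.55 (permutation p = 0.0264, adjusted 0.607). With 24 livers these p-values do not show that the genes are unrelated.

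Other genes of the pathway were read for the same comparison of ZT12 with ZT5, in numbers to be set against the 22.3% of all genes called in RNA and 31.8% in RPF. By direction, 1039 of the 10696 genes were higher and 1341 lower in RNA, and 1458 higher and 1945 lower in RPF. Of 20 genes of interleukin-6 and interleukin-1 signalling, 4 were higher and 0 lower in RNA at ZT12 over all livers, and 7 higher and 3 lower in RPF (edgeR, adjusted p under 0.05). The share called in RNA was near that of all genes when both directions are counted, and the split by direction was not tested. In RNA the median log2 difference of the 20 was 0.10 against -0.04 over all genes. The transcription factor *Cebpb* rose by 0.92 ± 0.11 (SE, adjusted p = 2.49e-07, edgeR) and *Il6ra*, the interleukin-6 receptor subunit, by 1.38 ± 0.15 (adjusted p = 4.15e-07), with *Cebpd* at 1.25 and the interleukin-1 receptor *Il1r1* at 0.83 also called. Of 28 other positive acute-phase genes, 7 were higher and 8 lower in RNA, with a median of 0.06, and 8 were higher and 8 lower in RPF. Within genotypes the lower calls of this list came from the *Aco1* line, with 5 in RNA and 4 in RPF in *Aco1*+/+ and 6 and 7 in *Aco1*-/-, against 0 in RNA and RPF in either *Ireb2* genotype. The share of all genes called in either direction was 7.05% and 6.64% in *Aco1*+/+, 5.15% and 12.1% in *Aco1*-/-, 2.29% and 7.53% in *Ireb2*+/+ and 2.77% and 5.73% in *Ireb2*-/-. The median in RPF was -0.25 in *Aco1*+/+ and 0.13 in *Ireb2*+/+, and the difference between the lines was not tested. The fibrinogen chains *Fgg* (-0.57 ± 0.07, adjusted p = 1.65e-08, edgeR), *Fgb* (-0.52) and *Fga* (-0.49) fell at ZT12 over all livers, while *Steap4*, a metalloreductase, was higher (0.79, adjusted p = 4.36e-07). Of 14 negative acute-phase genes, 4 were higher and 0 lower in RNA, also a share near that of all genes when both directions are counted. Among them were *Serpina6*, which encodes corticosteroid-binding globulin (0.87), and *Hnf4a* (0.39). By genotype 0 genes of these 3 lists were called in RNA, and *Lifr* was the only one called in RPF, lower in *Ireb2*-/- at ZT5, where 0.0654% of all genes were called. In TE 0 genes of the first 2 lists and 1 of the negative acute-phase genes, *Selenop*, which was lower, were called over all livers, against 0.486% of all genes. Of the 23 iron genes, 5 were higher and 3 lower in RNA at ZT12, with a median of 0.00, and *Tfrc* was at 39.7 ± 18.3 CPM at ZT12 and 13.1 ± 5.94 at ZT5 (SD, n = 12 each). In RPF 5 iron genes were higher and 5 lower, and in TE *Fth1* (-1.38) and *Slc40a1*, the iron exporter ferroportin (-0.37), were lower. *Hamp* was not called over all livers in RNA, RPF or TE, but its RPF was lower at ZT12 within *Aco1*-/- (log2 -1.12 ± 0.31, SE, adjusted p = 0.0351, edgeR, background 12.1%).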

How the data were processed

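Total RNA and RPF libraries of 24 mouse livers were analysed. The authors removed adapters (cutadapt 3.5), filtered reads by quality and length, removed ribosomal and transfer RNA reads (Bowtie2), aligned the rest with STAR 2.70f to a mouse genome and deposited raw read counts per gene and transcript region for each sequencing run. The counting tool, its strand setting and the names of the count columns are not given in the sources used here, and the third column, which holds 91.9 to 96.1% of RPF reads, was read as the CDS.

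The 77 runs were summed into 48 libraries. Genes were filtered with filterByExpr (minimum count 10, total 15), normalised by the upper quartile and tested with edgeR 4.0.16 quasi-likelihood fits (R 4.3.3), each line fitted with its 4 groups and all 24 livers fitted together for time over all livers and for the controls of the 2 lines. TE was tested in 1 model of both kinds of library with a term for each liver. P-values were adjusted by Benjamini-Hochberg over 10696 genes, with a threshold of 0.05. CPM and TE per liver were computed with a prior count of 0.5 on the log2 scale. Correlations across livers used deviations from group means, with 100000 permutations within groups (SciPy 1.17.1, NumPy 2.4.6), adjusted within each family. Scripts were tested on simulated data. Promoters came from RefSeq (GRCm38.p6), which matched 9 of 10 members and not *Orm1*.

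The 10 genes and all gene lists were chosen with earlier results of these data known. All 10 genes are named. Among other genes, those named are *Hamp*, the targeted genes, the called genes of the lists with the smallest p, and the 10 highest and 5 lowest r with the mean acute-phase level in RNA among 8091 genes at a mean of at least 5 CPM. *Socs3* was named after its values were seen. The alternatives tried were TMM normalisation, DESeq2 1.42.0, limma 3.58.1 on TE, other filters, the first run alone, all count columns, only the livers compared, a block for the replicate number, summed gene copies, removal of each liver and, for correlations in RNA, values with no group mean taken off. Removal of the 2 livers with pancreas markers was chosen after seeing the data. Intervals cover the spread between livers, and at 1 to 24 reads of *Lcn2* and 2 to 40 of *Saa2* per RNA library, small differences of these genes were not detectable.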

Additional observations from a re-analysis of the deposited data

Results flagged for a closer look

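The fitted difference of *Saa2* TE between knockout and control at ZT5 had opposite signs in the 2 lines, and neither passed the threshold. In *Aco1*-/- livers it was 0.58, 0.97 and 0.85 against 1.53, 1.13 and 1.26 in *Aco1*+/+, a fitted log2 difference of -0.47 ± 0.40 (SE, adjusted p = 1, edgeR). In *Ireb2*-/- livers it was 1.67, 0.27 and 1.97 against 0.10, 0.19 and 0.03 in *Ireb2*+/+, a difference of 0.94 ± 0.46 (adjusted p = 0.706, edgeR). In each line every knockout liver lay on 1 side of every control liver, and the difference between the lines was not tested. *Saa2* RNA rested on 2 to 40 reads per library, and reads of *Saa1* may be counted as *Saa2*. The part of either in the result was not tested.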

How the results depend on the processing

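That 0 of 10 genes were called by genotype or interaction held under every alternative run, and *Saa4* over all livers was called in RNA and RPF under each. With all count columns in place of the CDS, 3 genes were called over all livers in RNA (*Itih3*, *Saa4* and *Serpina3n*), 1 in TE (*Itih3*), 1 in RNA within each of *Aco1*+/+, *Ireb2*+/+ and *Ireb2*-/-, 1 in RPF within *Aco1*+/+ and *Ireb2*+/+, and 0 in TE between the lines. *Apcs* TE between the lines gave 0 calls also with the first run alone, limma, no filter and without the 2 livers with pancreas markers. The last left 1 call in RPF over all livers. TMM gave 1 call in RPF within *Aco1*+/+ and 1 within *Ireb2*+/+, DESeq2 gave 1 within *Ireb2*+/+, and a fit of only the livers compared gave 1 in RNA within *Aco1*+/+. Correlations in RPF gave 1 gene with *Hamp* and 2 pairs of members, and RNA without the 2 farthest livers also gave 2 pairs. With copies summed, the interaction of *Saa2* TE in the *Ireb2* line turned from -1.39 to 0.11. The cause was not tested.

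Leaving out 1 liver of the groups compared gave 0 to 1 calls in RNA within *Aco1*-/- and *Aco1*+/+, 0 to 1 in RPF within *Aco1*+/+, *Ireb2*+/+ and *Ireb2*-/-, 0 to 1 in TE between the lines, and 1 to 3 in RNA and 1 to 2 in RPF over all livers. Without *Ireb2*-/- ZT12 replicate 2, *Apcs* RPF by genotype turned from 0.37 to -0.026 (range -0.026 to 0.62) and the *Itih3* RNA interaction from 0.23 to -0.053 (range -0.053 to 0.39). Without *Aco1*+/+ ZT5 replicate 1, *Saa2* was called in RNA within *Aco1*+/+ (adjusted p = 0.0332, edgeR). Without *Ireb2*+/+ ZT12 replicate 2, *Saa4* was called in RPF within *Ireb2*+/+ (adjusted p = 0.0142, edgeR). Of livers not compared but in the same fit, *Aco1*-/- ZT12 replicate 3 left out gave *Saa4* in RNA within *Aco1*+/+, and *Ireb2*-/- ZT12 replicate 1 or 3 gave *Saa4* in RPF within *Ireb2*+/+. Over all livers in RNA, *Orm1* and *Orm2* were called as well without *Ireb2*-/- ZT12 replicate 3, and *Itih3* without replicate 2.

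Same-numbered livers had correlations of -0.145 to 0.269 (median 0.0165), and were all over 0.1 in 1 of 16 comparisons, *Ireb2*-/- with *Ireb2*+/+ at ZT12 in RPF (0.133, 0.118 and 0.112). In 2 of 16, this and the same groups in RNA, every liver correlated best with its own number, as a hint from the data and not the design. A replicate block moved 0 of 36 counts of calls by over 1.5 times, with *Saa4* over all livers at an adjusted p of 2.89e-05 in RNA (edgeR).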

Other observations

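The genes of the 4 lists outside the 10 were also set against the mean acute-phase level of a liver over 24 livers. Of the 28 other positive acute-phase genes, 22 had a positive r in RNA, 25 in RPF and 21 in both, with medians of 0.17 and 0.36 and a range in RNA of -0.24 to 0.73. Of the 20 genes of interleukin-6 and interleukin-1 signalling, 13 were positive in RNA, 13 in RPF and 8 in both, with medians of 0.13 and 0.093. The highest in that list was *Stat3*, the transcription factor of interleukin-6 signalling, at 0.59 in RNA and 0.60 in RPF, while *Bcl3*, an NF-kB cofactor, was at -0.21 and -0.61. Of the 14 negative acute-phase genes 5 were positive in RNA and 5 in RPF, and of the 23 iron genes 8 and 12. *Hamp* had -0.19 and 0.02. The genes named here were chosen after their values were seen. These values are descriptions of the same libraries from which the level was made, and carry no test.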
